A study of Homo sapiens with 4 samples.

Results

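The genes for 8 secreted factors of blood and lymphatic vessels and of calcium and phosphate handling were followed across 4 treatments of CHP134 cells, an established human neuroblastoma line with amplified MYCN. They are VEGFA, VEGFB, PGF, VEGFC, CCBE1, EGFL7, STC1 and STC2, taken by symbol from the 60651 gene IDs of the count table, and all 8 were found. The cells were treated for 24 h with the vehicle DMSO at 0.04%, with 5 µM 13cRA (13-cis retinoic acid, a retinoid used in neuroblastoma care), with 10 µM doxazosin (an alpha-1 adrenergic receptor blocker) or with both drugs at these doses, called the combination here. Each treatment was 1 sample, processed as single cells on 1 nanowell chip with full-length chemistry without molecular identifiers. The line is a single culture grown on plastic, so it holds tumour cells alone and no vessels on which these factors could act.

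The VEGF ligands bind receptor tyrosine kinases on endothelial cells. VEGFA drives the growth of blood vessels through KDR, VEGFB and PGF bind FLT1, and VEGFC drives the growth of lymphatic vessels through FLT4 after proteases have trimmed its precursor. CCBE1 is a secreted protein that helps the protease ADAMTS3 to activate VEGFC. EGFL7 is a matrix-bound factor made mainly by endothelial cells, and its gene hosts the microRNA gene MIR126. The stanniocalcins STC1 and STC2 are secreted glycoproteins, first known as calcium-regulating hormones of fish, that inhibit the pappalysin proteases PAPPA and PAPPA2, and both genes are known to respond to hypoxia or cell stress.

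Of 1287 cells in the table, 1197 passed the cell filter, with 353 DMSO, 318 13cRA, 239 doxazosin and 287 combination cells. Their counts summed to 48164169, 22636509, 46171287 and 72192743. A level below is CPM, the summed count as counts per 1000000 counts of its library, with an exact 95% Poisson interval. A share is the percentage of cells with at least 1 count after every cell was thinned to 34000 counts, with an exact (Clopper-Pearson) 95% interval; 1082 cells were deep enough. A difference is log2((CPM + 1)/(CPM + 1)), and a difference of at least 1 in either direction is called at least 2-fold. With 1 sample per treatment nothing here has a replicate error or a test, and the intervals cover counting error (levels) or the sampling of cells (shares) only. Those of levels take reads as independent and leave out the spread between cells, so they are likely too narrow. Fewer cells that use a gene and less RNA per cell cannot be told apart in a summed level. The 13cRA library was the shallowest, kept fewer genes per thinned cell (median 3892 against 4686 in DMSO) and had more mitochondrial counts (median 13.2% against 10.6%), and the part of these features in the results was not tested.

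Markers of the sympathetic lineage were present in every library, although TH and DBH, enzymes of catecholamine synthesis, were at or below 0.177 CPM in all 4. HAND2, a transcription factor of the sympathetic lineage, was at 75.1, 85.7, 83.7 and 73.9 CPM in the DMSO, 13cRA, doxazosin and combination libraries, the order used for every set of 4 values below. Of 9 measured lineage markers 1 was at least 2-fold lower than DMSO in 13cRA and 2 in the combination. Of the 9573 genes compared 3.29% and 1.48% were so. Whatever the size, 5 of these markers were higher and 4 lower in 13cRA, and 2 higher and 7 lower in the combination. ISL1 was at 54.4, 11.9, 49.3 and 26.0 CPM, and GATA2 at 13.4, 6.58, 11.1 and 2.92 CPM. Leukocyte and epithelial markers summed to at most 1.17 and 2.16 CPM. The 9 endothelial markers other than EGFL7 and KDR summed to 1.72, 24.0, 2.08 and 13.9 CPM. Of that sum the tight-junction gene CLDN5 alone made up 0.540, 19.7, 0.715 and 11.1 CPM, while PECAM1, CDH5, VWF, TEK and TIE1 stayed at or below 1.19 CPM in all 4. Fibroblast markers summed to 12.9, 24.2, 11.6 and 8.81 CPM and Schwann cell markers to 19.3, 20.5, 10.8 and 9.52 CPM.

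The 8 genes were used at very different levels. Per kilobase of exon in protein-coding transcripts, STC1 had the highest mean level over the 4 libraries (34.7 CPM per kilobase), before VEGFB (19.1), PGF (6.05), CCBE1 (4.77), VEGFA (2.19), VEGFC (2.11), EGFL7 (1.14) and STC2 (0.238). With exon lengths over all transcripts, PGF was at 2.17 and VEGFA at 0.571, which put CCBE1 (4.53) before PGF, and VEGFC (1.80) and EGFL7 (1.14) before VEGFA. The order was not the same in every library. In DMSO it ran STC1, VEGFB, PGF, EGFL7, VEGFA, VEGFC, STC2 and CCBE1, from 60.7 to 0.0519 CPM per kilobase. In 13cRA it ran VEGFB, STC1, CCBE1, PGF, VEGFA, VEGFC, EGFL7 and STC2, from 22.1 to 0.231. Neighbours whose counting intervals overlapped were EGFL7 and VEGFA in DMSO, and STC1 and CCBE1, and EGFL7 and STC2, in 13cRA. A minimum mean of 5 CPM over the 4 libraries, set for every gene alike, left 5 measured genes (STC1, VEGFB, PGF, CCBE1 and VEGFA). CCBE1 passed it only through the libraries that had received 13cRA, so its place among the measured genes already implies a difference. VEGFC, EGFL7 and STC2, with means of 4.35, 2.91 and 1.28 CPM, are given by levels and shares and are not counted among the called genes.

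**Figure D1:**
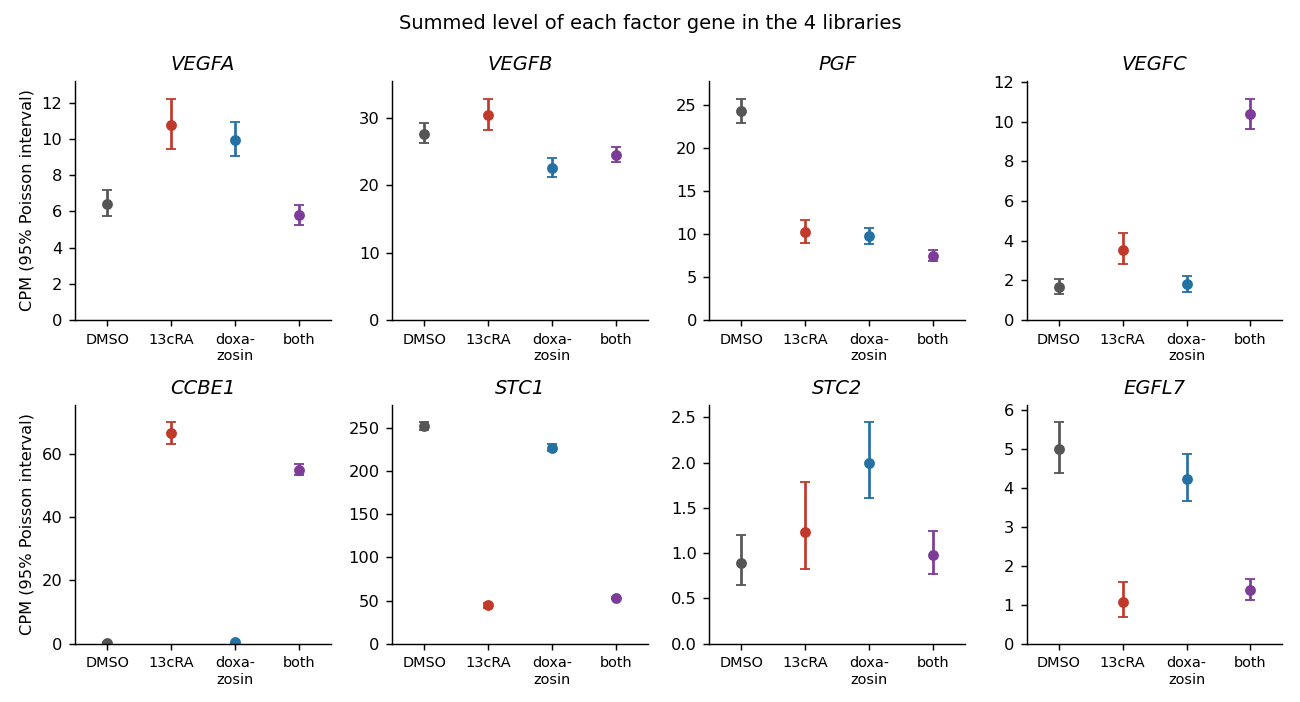
Each panel plots the summed level (CPM, linear axis from 0, scaled to each gene) of 1 gene in the 4 libraries. Bars are exact 95% Poisson intervals, which take reads as independent and cover counting error only. STC1 and EGFL7 are low, and CCBE1 is high, in the 2 libraries that received 13cRA (13cRA and both), while PGF is highest in DMSO.

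STC1 (ENSG00000159167.12, chromosome 8, 23841915 to 23854807, minus strand, protein-coding in GENCODE 29 on GRCh38) was the most abundant of the 8 genes without 13cRA. Its level was 251.7 CPM (247.2 to 256.2) with DMSO, 44.3 CPM (41.6 to 47.1) with 13cRA, 227.1 CPM (222.7 to 231.5) with doxazosin and 53.0 CPM (51.3 to 54.7) with both drugs. The DMSO and doxazosin libraries were thus high and both libraries with 13cRA were low. The difference from DMSO was −2.48 with 13cRA, −0.15 with doxazosin and −2.23 with the combination, and the combination stood at −2.08 from doxazosin and at 0.25 from 13cRA.

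The share of cells divided the libraries into the same pairs. STC1 had a count in 84.5% (80.1 to 88.2) of DMSO cells, 38.6% (32.5 to 44.9) of 13cRA cells, 85.1% (79.9 to 89.4) of doxazosin cells and 49.6% (43.5 to 55.8) of combination cells. Without thinning the shares were 89.5%, 42.5%, 91.6% and 65.5%. The count per cell was lower as well. At least 10 STC1 counts were seen in 33.5% of thinned DMSO cells and 31.9% of doxazosin cells, against 2.81% of 13cRA and 5.56% of combination cells. Among cells with a count, the median thinned count was 7 for DMSO and doxazosin, 2.5 for 13cRA and 3 for the combination. With 13cRA, alone or in the combination, there were thus fewer cells with a count and fewer counts in those cells. The intervals of the 13cRA and combination shares overlapped, from 43.5 to 44.9%.

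STC2 (ENSG00000113739.11, chromosome 5, 173314713 to 173329503, minus strand), the paralog of STC1, was close to the limit of detection. Its summed counts were 43, 28, 92 and 71, or 0.893, 1.24, 1.99 and 0.983 CPM. The doxazosin level (1.61 to 2.44) was the highest and its interval overlapped only that of 13cRA (0.822 to 1.79). STC2 had a count in 2.74%, 0.803%, 3.83% and 2.22% of thinned cells, with intervals that all overlapped. The 13cRA library was second in level and lowest in share, so the order of the libraries is not read from either. In the RefSeq promoter window around its start (chr5:173328365-173328664, minus strand, GRCh38.p14) the letters GCGTG, a core of the hypoxia response element, occurred 3 times over both strands, and 36.5% of 35116 RefSeq windows of the same length hold at least 1.

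**Figure D2:**
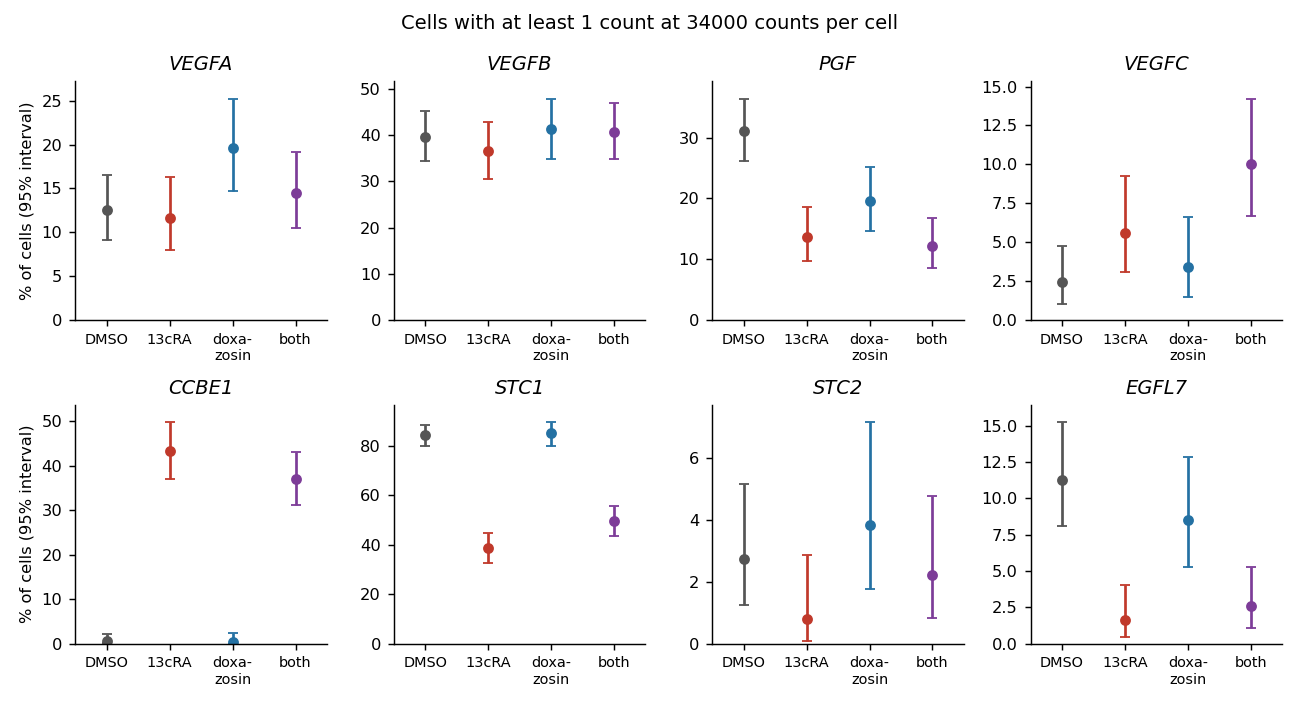
Each panel plots the percentage of cells with at least 1 count of 1 gene after thinning to 34000 counts per cell (linear axis from 0, scaled to each gene), with exact 95% binomial intervals, for 328 DMSO, 249 13cRA, 235 doxazosin and 270 combination cells. STC1 is seen in 84.5 and 85.1% of cells without 13cRA and in 38.6 and 49.6% with it, whereas VEGFB lies between 36.5 and 41.3% in all 4 libraries.

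CCBE1 (ENSG00000183287.14, chromosome 18, 59430939 to 59697662, minus strand) was nearly silent without 13cRA. It had 16 counts in all DMSO cells and 18 in all doxazosin cells, or 0.332 CPM (0.190 to 0.539) and 0.390 CPM (0.231 to 0.616). In the 13cRA library it was at 66.5 CPM (63.2 to 70.0) and in the combination at 55.0 CPM (53.3 to 56.7). The intervals of the pair with 13cRA lay far above those of the pair without it. The difference from DMSO was 5.66 with 13cRA, 0.06 with doxazosin and 5.39 with the combination. Without the pseudocount the log2 ratio of 13cRA to DMSO was 7.65, with a counting interval of 6.94 to 8.46. CCBE1 shares 355 exon bases with the antisense gene AC010776.2, and since the strand setting of the counting is not given in the sources used here, reads of the partner cannot be told apart from those of CCBE1.

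CCBE1 was seen in a large minority of the treated cells. A count was present in 43.4% (37.1 to 49.8) of 13cRA cells and 37.0% (31.3 to 43.1) of combination cells. The corresponding shares were 0.610% of DMSO cells (2 of 328) and 0.426% of doxazosin cells (1 of 235). At least 10 counts were seen in 7.23% of 13cRA cells and 3.33% of combination cells, and in no thinned cell of the other 2 libraries. The combination was lower than 13cRA by 0.27 on the log2 scale. With TMM factors, which rescale the shallow 13cRA library, that difference was 0.04, so its direction depends on the scaling. It was −0.57 by averaging the CPM of single cells and −0.84 among cells of 34000 to 120000 counts. A single combination cell held 569 of the 3970 CCBE1 counts. Without the highest cell of each library the combination was at 47.5 CPM and its difference from 13cRA was −0.40.

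The RefSeq promoter window of CCBE1, from 250 bases before to 50 bases after the start, is shown because CCBE1 had the largest differences of the 8 genes, and that of VEGFC because CCBE1 acts on its protein. RefSeq windows were at hand for 6 of the 8 genes. Capitals mark the letters of the motifs searched on both strands. The cores of the hypoxia response element were searched as ACGTG and as GCGTG. Half-sites of nuclear receptors were searched as AGGTCA and as GGTTCA. Metal response elements were searched as TGCACNC and as TGCGCNC, and the ATF4 element as TGATGCAA.
CCBE1, chr18:59697374-59697673, minus strand, GRCh38.p14: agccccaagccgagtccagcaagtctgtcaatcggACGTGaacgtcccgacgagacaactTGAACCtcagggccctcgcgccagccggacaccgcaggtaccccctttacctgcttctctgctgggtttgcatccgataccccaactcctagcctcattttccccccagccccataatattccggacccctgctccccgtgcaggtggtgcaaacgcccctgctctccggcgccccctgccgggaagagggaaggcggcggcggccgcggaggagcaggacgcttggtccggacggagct
VEGFC, chr4:176792873-176793172, minus strand, GRCh38.p14: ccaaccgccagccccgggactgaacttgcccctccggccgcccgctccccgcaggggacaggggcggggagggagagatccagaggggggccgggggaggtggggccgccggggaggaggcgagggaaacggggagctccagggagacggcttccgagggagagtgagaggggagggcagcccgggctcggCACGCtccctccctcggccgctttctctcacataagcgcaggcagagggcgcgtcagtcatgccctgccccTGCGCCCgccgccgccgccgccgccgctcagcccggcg
In the CCBE1 window, GGTTCA lies on the reverse strand starting 190 bases before the start site, and ACGTG lies 215 bases before it. Of all windows 8.62% hold GGTTCA and 21.4% hold ACGTG. The latter is also part of the E-box CACGTG bound by MYC proteins, which is not in any of the 8 windows of these genes. The VEGFC window holds 1 GCGTG and 1 TGCGCNC, and 19.97% of all windows hold the latter. A match of so few letters is a description of the window, not a binding site.

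VEGFC (ENSG00000150630.4, chromosome 4, 176683538 to 176792727, minus strand) had its highest level with both drugs. Its summed counts were 80, 80, 83 and 750, or 1.66, 3.53, 1.80 and 10.4 CPM. The interval in the combination, 9.66 to 11.2 CPM, lay above those of the other 3 libraries. A single combination cell, however, held 333 of the 750 counts. Without the highest cell of each library the levels were 1.21, 2.72, 1.52 and 5.84 CPM, and the difference of the combination from 13cRA was 0.88 in place of 1.33. VEGFC had a count in 2.44% (1.06 to 4.75), 5.62% (3.11 to 9.25), 3.40% (1.48 to 6.60) and 10.0% (6.69 to 14.2) of thinned cells. By share the combination was again highest, although its interval overlapped that of 13cRA. Among cells of 34000 to 120000 counts, of which the combination had 38, the combination was at 2.99 CPM and 13cRA at 3.97 CPM.

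The proteases that activate VEGFC, and its receptor, were mostly low. ADAMTS3, the protease that CCBE1 assists, was at 3.16, 5.83, 3.40 and 3.53 CPM, under the minimum. Of 7 proteases listed for VEGFC processing 2 were measured. PCSK7, a proprotein convertase, was at 4.24, 13.1, 5.68 and 6.14 CPM, a difference of 1.43 for 13cRA from DMSO (0.97 with a pseudocount of 5 CPM), and PCSK6 was at 19.8, 15.0, 14.3 and 24.3 CPM. FLT4, the main VEGFC receptor, reached at most 0.309 CPM in any library.

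PGF (ENSG00000119630.14, chromosome 14, 74941834 to 74955784, minus strand) was the 1 measured gene of the 8 at least 2-fold lower with each drug alone. It was at 24.3 CPM (23.0 to 25.8) with DMSO, 10.2 CPM (8.93 to 11.6) with 13cRA, 9.79 CPM (8.91 to 10.7) with doxazosin and 7.49 CPM (6.88 to 8.15) with both. The DMSO interval lay above the other 3. Those of the 2 single drugs overlapped each other, and the combination lay below both. The differences from DMSO were −1.18, −1.23 and −1.58. That of 13cRA did not reach 2-fold when the CPM of single cells was averaged (−0.71), with a pseudocount of 5 CPM (−0.95) or among cells of 34000 to 120000 counts (−0.63), and that of doxazosin was −0.99 with a pseudocount of 5 CPM.

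PGF was seen in 31.1% (26.1 to 36.4) of DMSO cells, 13.7% (9.65 to 18.6) of 13cRA cells, 19.6% (14.7 to 25.2) of doxazosin cells and 12.2% (8.56 to 16.7) of combination cells. Here too DMSO stood above the rest. At least 3 counts were seen in 11.3% of thinned DMSO cells, 4.82% of 13cRA cells, 2.98% of doxazosin cells and 3.70% of combination cells. The median count of cells with a count was 1 with doxazosin and 2 in the other libraries. The RefSeq window of its upstream start is shown since PGF was lower after both drugs, with capitals as above.
PGF, chr14:74955715-74956014, minus strand, GRCh38.p14: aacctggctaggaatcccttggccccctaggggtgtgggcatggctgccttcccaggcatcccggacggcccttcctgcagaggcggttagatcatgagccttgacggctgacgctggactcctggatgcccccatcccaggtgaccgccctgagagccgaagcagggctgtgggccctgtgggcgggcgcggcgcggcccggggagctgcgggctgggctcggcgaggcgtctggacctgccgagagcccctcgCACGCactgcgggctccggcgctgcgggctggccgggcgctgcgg
It holds GCGTG once, on the reverse strand, 6 bases after the start site, and none of the other letters searched.

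**Figure D3:**
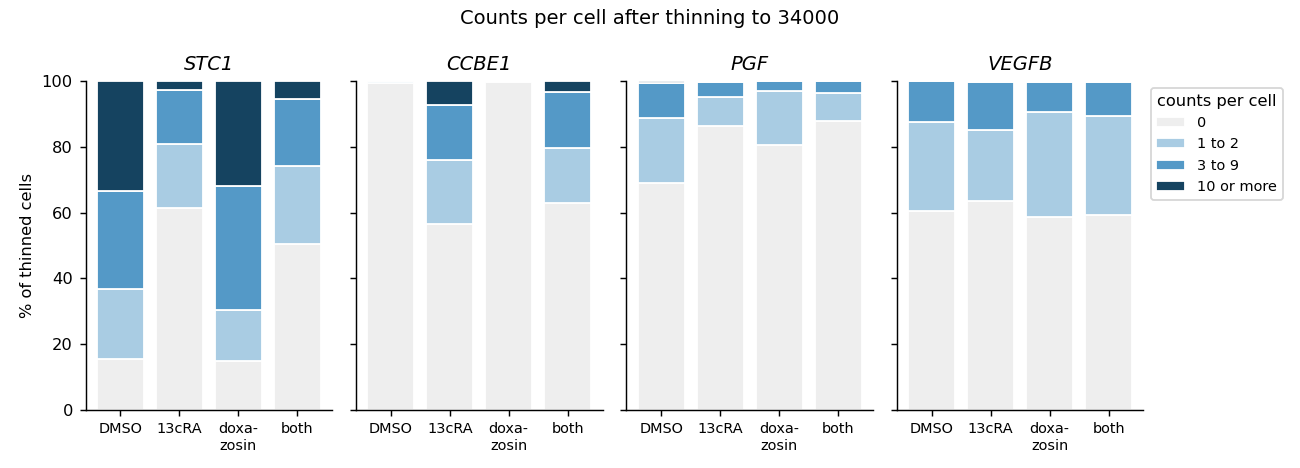
Stacked bars give the percentage of thinned cells with 0, 1 to 2, 3 to 9 and 10 or more counts of STC1, CCBE1, PGF and VEGFB in each library (34000 counts per cell). Cells with 10 or more STC1 counts make up 33.5% of DMSO and 2.81% of 13cRA cells, and VEGFB has nearly the same make-up in the 4 libraries.

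VEGFB (ENSG00000173511.10, chromosome 11, 64234538 to 64238793, plus strand) was the steadiest of the measured genes. Its level was 27.7 CPM (26.2 to 29.2), 30.5 CPM (28.2 to 32.8), 22.6 CPM (21.2 to 24.0) and 24.5 CPM (23.4 to 25.7). All 5 differences were between −0.30 and 0.13. The sign of the 13cRA difference from DMSO was negative with TMM factors (−0.19) and DESeq2 size factors (−0.15). VEGFB had a count in 39.6%, 36.5%, 41.3% and 40.7% of thinned cells, and the 4 intervals overlapped.

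VEGFA (ENSG00000112715.25, chromosome 6, 43770184 to 43786487, plus strand) was higher with each drug alone than with neither or both. It was at 6.42 CPM (5.72 to 7.17) with DMSO, 10.8 CPM (9.47 to 12.2) with 13cRA, 9.96 CPM (9.07 to 10.9) with doxazosin and 5.79 CPM (5.25 to 6.37) with both. The intervals of the single drugs overlapped each other, as did those of DMSO and the combination. No difference reached 2-fold, although among cells of 34000 to 120000 counts that of the combination from doxazosin was −1.05. The departure from additivity, the difference of the combination from DMSO less the sum of those of the single drugs on the log2 scale, was −1.36, and 1.88% of the 9573 genes tested had a lower one. With TMM factors it was −1.10, with DESeq2 size factors −1.18, by averaging the CPM of single cells −1.02, and with a pseudocount of 5 CPM −0.94.

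The share of VEGFA cells did not follow the level. VEGFA had a count in 12.5% (9.12 to 16.6) of DMSO cells, 11.6% (7.94 to 16.3) of 13cRA cells, 19.6% (14.7 to 25.2) of doxazosin cells and 14.4% (10.5 to 19.2) of combination cells, and all 4 intervals overlapped. The counts were held by few cells in the 13cRA library. The highest 5% of cells (16 of 318) held 82.8% of its VEGFA counts, against 53.4%, 49.6% and 51.2% in the other libraries, and 1 cell held 21.7%. Without the highest cell of each library the 13cRA difference from DMSO was 0.44 in place of 0.67, and among cells of 34000 to 120000 counts it was 0.21. VEGFA shares 188 exon bases with the antisense gene AL136131.3, whose reads cannot be told apart from its own here.

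Summed over the 4 VEGF ligands per kilobase, VEGFB made up most of the summed level. Its part was 59.1%, 70.3%, 66.9% and 63.9%. PGF made up 33.5%, 15.2%, 18.7% and 12.6%, and VEGFC 2.37%, 5.45%, 3.56% and 18.1%. These parts depend on the gene lengths used. That of VEGFC in the combination also depends on 1 cell, which held 333 of its 750 counts. Without the highest cell of each library VEGFC was at 5.84 CPM there, in place of 10.4 CPM. At least 1 of the 4 ligands was seen in 66.2% (60.8 to 71.3), 55.0% (48.6 to 61.3), 64.3% (57.8 to 70.4) and 58.1% (52.0 to 64.1) of thinned cells.

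EGFL7 (ENSG00000172889.16, chromosome 9, 136658856 to 136672678, plus strand) was low and was highest in the same 2 libraries as STC1. Its summed counts were 241, 24, 195 and 99, or 5.00 CPM (4.39 to 5.68), 1.06 CPM (0.679 to 1.58), 4.22 CPM (3.65 to 4.86) and 1.37 CPM (1.11 to 1.67). The 2 libraries without 13cRA overlapped each other, as did the 2 with it, and the pairs were apart. Shares of thinned cells were 11.3% (8.07 to 15.2), 1.61% (0.439 to 4.06), 8.51% (5.28 to 12.8) and 2.59% (1.05 to 5.27). They formed the same 2 pairs, but the intervals of doxazosin and the combination all but touched. A single combination cell held 38 of the 99 counts. The summed endothelial markers were higher, not lower, in the libraries with 13cRA, through CLDN5, and their part in the EGFL7 values was not tested. Among cells of 34000 to 120000 counts, of which doxazosin had 58, the doxazosin level was 1.03 CPM, next to 5.04 CPM in DMSO, in place of 4.22 CPM over all kept doxazosin cells. MIR126 lies within EGFL7 and shares no exon bases with it, and mature microRNAs are not analysed here.

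The measured genes past 2-fold were CCBE1, STC1 and PGF. Against DMSO, 13cRA had 1 of 5 at least 2-fold higher (CCBE1) and 2 lower (STC1 and PGF), beside 5.44% of all 9573 genes higher and 3.29% lower. With TMM factors the same 3 genes were past 2-fold, while the background was 2.98% higher and 9.68% lower and the median of all genes moved from −0.02 to −0.34. Doxazosin had none higher and 1 lower (PGF), beside 0.669% and 0.481% of all genes. The combination had 1 higher (CCBE1) and 2 lower (STC1 and PGF), beside 2.71% and 1.48%. These 3 comparisons share the DMSO library, so they are not separate evidence. The combination against 13cRA had none in either direction, beside 2.74% and 4% of all genes. Against doxazosin it had CCBE1 higher and STC1 lower, beside 2.8% and 1.64%. Since CCBE1 passed the minimum only through the libraries with 13cRA, its calls were implied by that filter. The shares of all genes are no measure for them. No other measured gene of the 5 was at least 2-fold higher in any of these comparisons. The median difference of the 5 genes was 0.13, −0.15 and −0.17 for 13cRA, doxazosin and the combination against DMSO, where that of all genes was −0.02 in each.

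**Figure D4:**
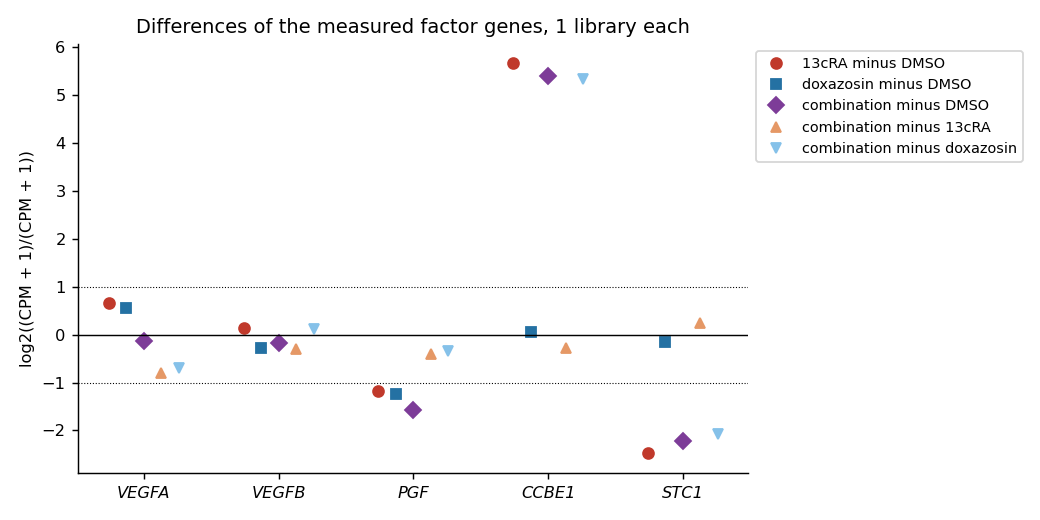
Points give the log2 difference with a pseudocount of 1 CPM for the 5 measured genes in the 5 comparisons, with 1 library on each side and no error bar since there are no replicates; dotted lines mark 2-fold. CCBE1 and STC1 lie past the lines in every comparison of a library with 13cRA against one without, and VEGFB stays between −0.30 and 0.13.

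For the other measured genes the departure from additivity was nearer to 0 with CPM. PGF had 0.83, with 94.2% of all genes below it, so the combination lay less far below DMSO than the sum of the single drugs. The departure of PGF was 1.10 with TMM factors, about the size of that of VEGFA under the same scaling, 1.02 with DESeq2 size factors and 0.12 by averaging the CPM of single cells. STC1 had 0.40, CCBE1 −0.33 and VEGFB −0.02.

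Within single cells, CCBE1 and STC1 were seen together slightly less often than the product of their shares. In the 13cRA library 32 thinned cells had both, where the product gives 41.6 cells, and STC1-negative cells had CCBE1 in 49.7% against 33.3% of STC1-positive cells. In the combination 43 cells had both, where the product gives 49.6. Across cells the rank correlation was −0.19 and −0.08, a description of sparse counts that share depth, not a finding. VEGFC and CCBE1, the ligand and its activating cofactor, were together in 14 combination cells, where the product gives 10, and in 5 13cRA cells, where it gives 6.07. Cells with none of the 8 genes made up 5.49%, 15.7%, 5.53% and 9.26%, and the median number of the 8 genes per cell was 2, 1, 2 and 2.

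The receptors of these ligands were nearly absent from the tumour cells. FLT1 was at 0.249, 0.618, 0.368 and 0.803 CPM, and KDR stayed at or below 0.442 CPM. The co-receptors were higher. NRP1 was at 3.03, 1.41, 3.81 and 1.39 CPM, lower in the 2 libraries with 13cRA and under the minimum, and NRP2 was at 10.5, 12.4, 8.40 and 10.4 CPM. PLXND1, a semaphorin receptor, was at 10.98, 11.1, 8.40 and 10.3 CPM. Neither NRP2 nor PLXND1 was past 2-fold in any comparison with DMSO, and both were higher in 13cRA with CPM and lower with TMM factors.

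On the stanniocalcin side, the target protease PAPPA was at 1.47, 3.36, 2.25 and 2.62 CPM, under the minimum, and PAPPA2 stayed at or below 0.751 CPM. IGFBP4, the binding protein of insulin-like growth factors that PAPPA cleaves, was the measured partner of the 6 listed. It was at 142.9, 76.2, 97.1 and 74.9 CPM, with differences from DMSO of −0.90, −0.55 and −0.92, and with TMM factors that of 13cRA was −1.23.

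The neighbouring pathway genes were given by 10 lists of 92 genes, of which 43 were measured. In 13cRA against DMSO 7 were at least 2-fold higher and 2 lower, beside 5.44% and 3.29% of all genes. In doxazosin 1 was higher and none lower, beside 0.669% and 0.481%. In the combination 3 were higher and 2 lower, beside 2.71% and 1.48%. In both 13cRA and the combination, ANGPT1 and EGLN3 are among the higher genes and CXCL12 is among the lower. ANGPT1 and EGLN3 passed the minimum only through the libraries with 13cRA, and CXCL12 only through those without it. The shares of all genes are no measure for these calls. The median of the 43 was 0.01, 0.12 and −0.01, where that of all genes was −0.02 in each. The 13cRA counts by direction depend on the scaling. With TMM factors DDIT3, SESN2 and TIMP3 were no longer 2-fold higher in 13cRA. IGFBP4, LDHA, MT1X, PDK1 and XBP1 were then at least 2-fold lower. Of all genes 2.98% were higher and 9.68% lower under that scaling.

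Hypoxia genes did not move as a group with 13cRA. Of 10 measured hypoxia targets 4 were higher and 6 lower in 13cRA than in DMSO, none past 2-fold, with a median of −0.12. With TMM factors 3 were higher and 7 lower, 2 of them past 2-fold, beside 9.68% of all genes past 2-fold lower. The median of the targets was then −0.43, where that of all genes was −0.34. In doxazosin 8 were higher and 2 lower, none past 2-fold, with a median of 0.22. By averaged CPM of single cells 6 were higher and 4 lower. In the combination 7 were higher and 3 lower, against 6 and 4 with TMM factors and 9 and 1 by averaged CPM of single cells. There DDIT4, an inhibitor of mTOR signalling, was past 2-fold at 168.8 CPM against 79.4 (a difference of 0.82, under 2-fold, with averaged CPM of single cells). LDHA, the lactate dehydrogenase subunit, was at 3729, 2208, 4260 and 3372 CPM. HIF1A, the oxygen-regulated transcription factor subunit, was at 213.1, 166.0, 251.2 and 234.4 CPM. EGLN3, an oxygen-sensing prolyl hydroxylase, was the sensing gene past 2-fold, at 3.24, 24.0, 3.01 and 19.9 CPM, so it was high in both libraries with 13cRA, as CCBE1 was. It passed the minimum through those libraries.

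Stress genes differed more in 13cRA. Of 7 measured genes of the ATF4 and unfolded protein list, ATF3 (13.2, 49.0, 19.5 and 15.8 CPM), DDIT3 (11.2, 28.1, 17.6 and 12.7) and SESN2 (6.19, 14.2, 14.6 and 10.97) were at least 2-fold higher in 13cRA than in DMSO, and PSAT1, an enzyme of serine synthesis, was lower (171.4, 55.6, 202.9 and 135.4). With either TMM or DESeq2 scaling 1 gene of this list was past 2-fold higher and 2 lower in 13cRA. The shares of all genes were then 2.98% higher and 9.68% lower with TMM, and 3.22% and 8.48% with DESeq2. In 13cRA DDIT3 was under 2-fold with both of these factors, at 0.93 and 0.97, and SESN2 was between 0.77 and 0.81 with them, with averaged CPM of single cells and with a pseudocount of 5 CPM. SESN2 was the 1 listed gene past 2-fold with doxazosin, at 1.12, but was at 0.24 with averaged CPM of single cells and 0.81 with a pseudocount of 5 CPM. Of the metal-responsive list 4 genes were measured and none was past 2-fold against DMSO, with the zinc exporter SLC30A1 at 20.8, 41.1, 38.6 and 19.3 CPM, higher with each drug alone as VEGFA was.

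Other vessel factors went both ways. ANGPT1, a ligand of the endothelial receptor TEK that stabilises vessels, was at 1.87, 25.7, 1.93 and 21.3 CPM, and passed the minimum through the libraries with 13cRA. CXCL12, a chemokine, was at 10.1, 2.74, 8.58 and 1.70 CPM, a difference of −1.57 for 13cRA from DMSO (−0.97 with a pseudocount of 5 CPM). It passed the minimum only through the libraries without 13cRA. ANGPT2, which opposes ANGPT1, was at 5.19, 8.13, 10.1 and 11.1 CPM. Of 5 measured genes in the list headed antiangiogenic, TIMP3, a metalloproteinase inhibitor, was just past 2-fold higher in 13cRA (12.9, 26.9, 9.27 and 20.8 CPM). Its difference of 1.01 was 0.69 with TMM factors, 0.72 with DESeq2 size factors and 0.83 with a pseudocount of 5 CPM. SEMA3A, a semaphorin, was past 2-fold lower in the combination (15.7, 14.4, 13.4 and 5.75 CPM), with −1.31, but with −0.87 by averaged CPM of single cells and −0.95 with a pseudocount of 5 CPM.

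**Figure D5:**
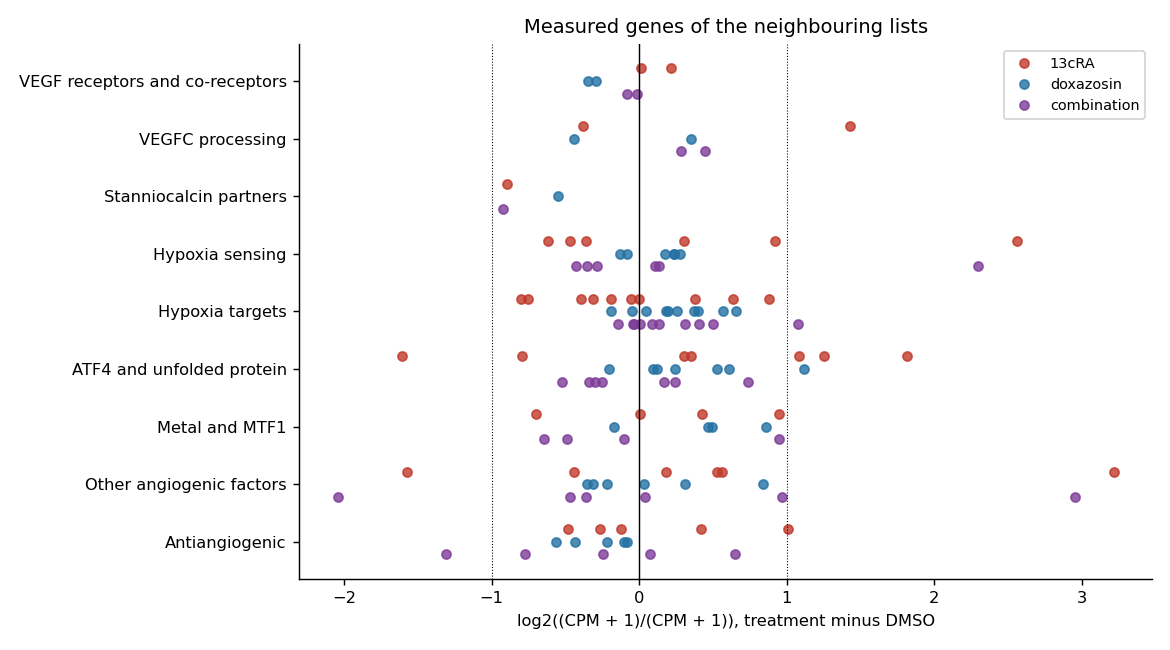
Each point is 1 measured gene of a neighbouring list, placed by its log2 difference from DMSO (pseudocount of 1 CPM) for 13cRA, doxazosin and the combination; dotted lines mark 2-fold. The points farthest to the right are ANGPT1 and EGLN3 in the libraries with 13cRA, and the hypoxia targets lie between the lines except DDIT4 in the combination.

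Among 5950 genes with a mean of at least 20 CPM, those closest to each measured gene over the 3 log2 differences from DMSO (Euclidean distance) were as follows. For STC1 they were MFAP4 (distance 0.70), ADAMTS5 (1.01) and HTR3A (1.16). For CCBE1 they were SPP1 (0.79), RGS16 (0.81) and PLEKHA6 (1.30), and SPP1, the secreted phosphoprotein osteopontin, was at 0.436, 54.6, 0.108 and 40.5 CPM. For PGF they were ID1 (0.62), ASF1B (0.65) and SLC38A5 (0.77), with ID1, an inhibitor of helix-loop-helix factors, at 125.4, 72.2, 71.4 and 35.3 CPM. For VEGFA they were MICALL1 (0.11), ZC3H7A (0.19) and ANKRD12 (0.21), and for VEGFB DDX42, PEDS1 and SAP130, all within 0.04. The likeness rests on 3 values that share the DMSO library.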

How the data were processed

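Counts were read from the table the authors deposited, which holds whole-number read counts per gene and cell. Tools named in the submitters' processing notes are featureCounts, STAR 2.7.8a, fastp 0.23.3, bcl2fastq and Seurat 4.3.0. Those notes name GRCh37 beside GRCh38.p13, without saying which was used for what. Not given in the sources used here are the annotation, the strand setting and the handling of shared reads. Per the labels' protocols, imaging picked the wells with 1 live cell, so no doublet caller was run. The combination had 4 cells of over 9000 genes.

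Cells with at least 500 genes and at most 25% mitochondrial counts were kept, summed per sample and scaled to CPM; summed counts ranged from 22636509 to 72192743. Amplified reads with no molecular identifier cannot count as separate molecules. The Poisson intervals take reads as independent, so they are likely too narrow. Without the highest cell of each library VEGFC in the combination was at 5.84 CPM, outside its interval of 9.66 to 11.2 CPM. For shares, cells were thinned to 34000 counts, leaving out 25 DMSO, 69 13cRA, 4 doxazosin and 17 combination cells. A gene was tested, meaning compared, if its mean over the 4 libraries was at least 5 CPM. Gene lengths and places come from GENCODE 29, which is not known to be the annotation behind the counts, and promoter sequences from RefSeq on GRCh38.p14. The calculation was tested on simulated data. Python 3.11.15, numpy 2.4.6, scipy 1.17.1, R 4.3.3, edgeR 4.0.16 (TMM factors) and DESeq2 1.42.0 (size factors) were used.

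The 8 genes and the lists were chosen with earlier results of these data known. All 8 genes were named. From each list up to 3 measured genes with the largest differences in the comparison described were named, and always FLT1, KDR, FLT4, NRP1, NRP2, HIF1A, ADAMTS3 and PAPPA. For each measured gene the 3 genes of nearest pattern were named. SESN2, XBP1, PLXND1, PCSK6, PAPPA2, LDHA, SLC30A1, DDIT4 and marker genes were also given where a sentence turns on them.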

Additional observations from a re-analysis of the deposited data

How the results depend on the processing

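The number of measured genes past 2-fold stayed within 1.5 times of the stated count with DESeq2 size factors, with TMM factors, with averaged CPM of single cells, with all cells, at least 2000 genes per cell, without the highest cell of each library and, chosen after seeing the data, without cells of over 9000 genes. With a pseudocount of 5 CPM the count for doxazosin against DMSO was 0, and among cells of 34000 to 120000 counts that for the combination against 13cRA was 1. With no minimum level, which lets the rare genes in, the counts were 5 for the combination against DMSO, 1 against 13cRA and 4 against doxazosin. The neighbouring lists gave 9 genes past 2-fold in 13cRA against DMSO, 5 with a pseudocount of 5 CPM and 14 with no minimum. Among cells of 34000 to 120000 counts VEGFC in the combination was −0.32 from 13cRA in place of 1.33, and EGFL7 in the combination was 0.30 from doxazosin in place of −1.14; this window held 141, 203, 58 and 38 cells, and the cause was not tested. Of 360 differences of single genes under 9 alternatives, 275 stayed within the counting interval of the stated value, 83 moved out of it, and those 2 changed sign from a difference past 2-fold; counting differences of any size, 18 changed sign. Lengths over all transcripts in place of coding ones put VEGFA at 0.571 in place of 2.19 and PGF at 2.17 in place of 6.05 CPM per kilobase, which changes their ranks. No paired analysis was possible because each treatment has 1 sample. The depth of VEGFC, EGFL7 and STC2 limits what their levels can show.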
